A study of Mus musculus with 2 samples.

Results

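Macrophage-rich bins were examined in 1 ovary section from an old C57BL6/J female mouse (about 14 months, replicate 1), with 1 section from a young female of the same strain (2 months, replicate 3) beside it. The labels name no further allele and no treatment, and per their protocols the 10 µm sections had been picked for planes with more than 1 oocyte. RNA was captured by Slide-seq, which reads RNA from a frozen section on barcoded beads whose place is known. The old section was divided into squares of 70 position units, and the 884 squares with at least 500 counts were kept. Each kept bin was ranked by the share of its counts that came from 6 macrophage genes. These were C1qa, C1qb and C1qc, which encode the chains of complement C1q, the colony-stimulating factor receptor gene Csf1r, the signalling adaptor gene Tyrobp and the membrane protein gene Ms4a7. The top 10% were 88 bins, of which 83 held at least 2 such counts and are the members, against 801 other kept bins. The same rule gave 116 members of 1306 kept bins in the young section, so the sections together held 2190 kept bins.

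Macrophages are phagocytes that reside in most tissues. They engulf dying cells, degrade them in lysosomes, export the cholesterol that this releases, and present peptides on MHC class II molecules. In the ovary they are known to clear regressing follicles and corpora lutea, the progesterone-forming bodies that develop after ovulation. In ovaries of old mice, foamy and multinucleated giant macrophages are known to gather in the stroma.

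The old section held 2348768 counts on 10267 beads and the young section 5158314 counts on 21403 beads, and no bead barcode was shared between them. A member bin held a median of 1627 counts (616 to 3556), against 2123 (500 to 13574) in the other old bins, on a median of 11 and 10 beads. A bin is a small piece of tissue that can hold several cells of different types. More macrophages in a bin and more RNA per macrophage therefore cannot be told apart. Each age has 1 library and bins of 1 section are not replicates, so no test was possible, and every 95% interval below covers counting error only. Values are CPM, counts per 1000000 summed counts without the 6 rule genes, and a ratio is that of members over other bins.

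The 6 rule genes chose the members, and their values are given as a description. The members held 422 of the 998 rule-gene counts of the kept old bins, or 42.3%, in 6.45% of all counts. The number per member bin was 2 to 26 with a median of 4, whereas 448 of the 801 other bins held none. C1qa supplied 203 of the members' counts and was found in 74 of the 83 members, against 193 of 801 other bins. Ms4a7 was found in 38 members, and Csf1r in 24. The cut was not a gap in the data. The member with the lowest share had 0.174398% (5 of 2867 counts), and the first bin outside had 0.17414% (4 of 2297 counts).

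Each rule gene was also higher in bins that it did not choose. With members chosen by the other 5 genes, C1qa was 5.49-fold higher in members than in the other bins (4.39 to 6.83), C1qb 5.63-fold, C1qc 6.24-fold, Tyrobp 4.77-fold, Ms4a7 4.21-fold and Csf1r 3.06-fold (1.63 to 5.39). Macrophage markers outside the rule were also higher. Lyz2, Ctss and the perforin-like gene Mpeg1 had ratios of 8.87, 8.81 and 8.25, the lysosomal sialomucin gene Cd68 5.29, Fcer1g 3.44 and Cx3cr1 3.39. The ratios of Aif1 and the mannose receptor gene Mrc1, 2.42 (0.835 to 5.81) and 1.94 (0.676 to 4.56), rested on 6 counts each in members. Adgre1, the F4/80 antigen gene, was seen 4 times in members and 11 times in the other bins, too few for a ratio here.

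The members lay in clusters rather than singly. Counting the 8 adjoining positions, they formed 26 patches, the largest of 15 and 12 bins, and 15 members stood alone. Of the 83 members 68 touched another member (81.9%), whereas 253 of the 801 other bins touched one (31.6%). These 253 adjoining bins are used below as the nearest tissue. The map of the section shows chains of members through its middle and on its left side, and members in each quadrant, from 11 to 27.

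**Figure D1:**
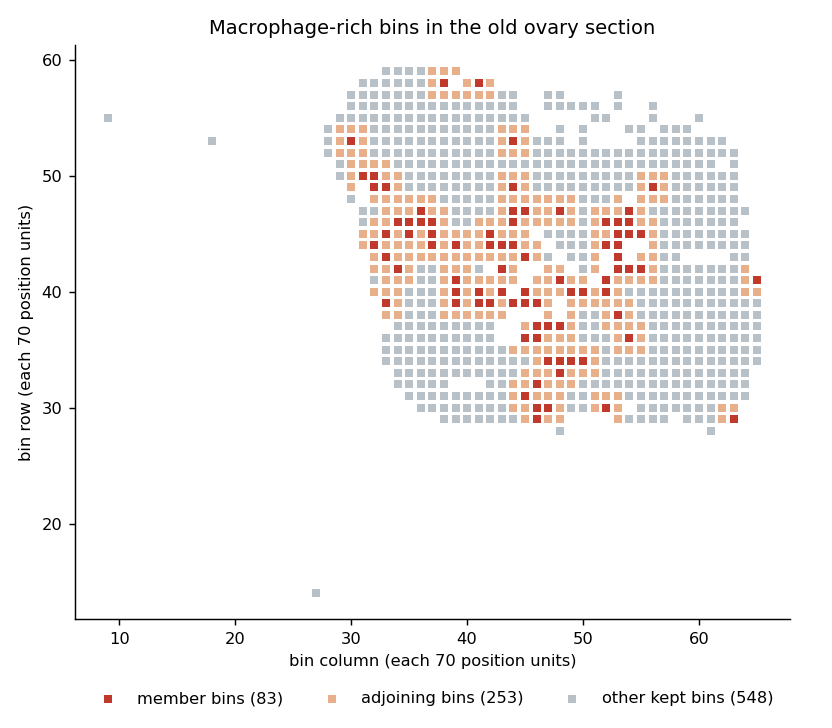
Map of the kept bins of the old section by bin column and bin row, each 70 position units. Red squares are the 83 members, orange squares the 253 bins that touch one and grey squares the other kept bins. The largest chain of touching members has 15 bins.

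Genes of lipid transport, lysosomes and antigen presentation led the members. Over the 10469 genes with at least 20 counts, 1768 (16.9%) were at least 1.5-fold higher in members and 2845 (27.2%) at least 1.5-fold lower, and the median ratio was 0.945. The list of lower genes includes 520 with no counts in members. Among the 2607 genes with at least 200 counts, 6.02% were higher and 17.4% lower by this measure. The genes described next are the 12 with the highest and the 12 with the lowest ratios at that depth, mitochondrial, ribosomal protein and predicted genes left out.

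Apoe encodes apolipoprotein E, which carries cholesterol and phospholipid out of cells. It stood at 0 to 57242 CPM per member bin with a median of 6301, against 0 to 18048 with a median of 651 in the other bins. It was detected in 79 of 83 members and in 611 of 801 other bins, so the sets overlapped but their middles stood far apart. The summed level was 9626 CPM in members and 998 CPM in other bins, a ratio of 9.65 (9.02 to 10.3). The pair of members richest in Apoe weighed on this value, and without them the ratio was 7.98. Pltp, the phospholipid transfer protein gene, had a ratio of 9.85 (7.35 to 13.2), from 82 counts in 37 members and 121 counts in 94 other bins.

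Lysosomal and phagocyte genes followed. Gpnmb, a membrane glycoprotein of lysosome-rich phagocytes, stood at 671 CPM in members and 71.3 CPM in other bins, a ratio of 9.41 (7.23 to 12.2). It was seen in 37 of the 83 members, where the highest reached 5475 CPM, and in 105 of the 801 other bins. Ctss, the lysosomal protease cathepsin S, stood at 1471 CPM in members and 167 CPM in other bins. It was seen in 62 of 83 members and in 209 of 801 other bins, with a ratio of 8.81 (7.41 to 10.5). Lyz2, the lysozyme of macrophages, had 942 and 106 CPM and a ratio of 8.87 (7.13 to 11.0). Ctsd, the aspartic protease cathepsin D, had 1186 CPM in members and 345 CPM in other bins, with a ratio of 3.44 (2.90 to 4.06). Lgals3, which encodes the sugar-binding protein galectin 3, had a ratio of 3.69.

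Antigen presentation genes were the third group. Cd74, the chaperone of MHC class II, stood at 705 CPM in members and 122 CPM in other bins, a ratio of 5.79 (4.57 to 7.30). H2-Ab1, a class II chain, had 610 and 128 CPM and a ratio of 4.76 (3.71 to 6.06). H2-D1, an MHC class I heavy chain that most cells make, had a ratio of 2.83 (2.42 to 3.29). Selenop, the secreted selenium carrier, had a ratio of 4.95, and Sfrp1, a secreted Wnt antagonist of stromal cells, one of 3.02 on 38 counts in members.

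**Figure D2:**
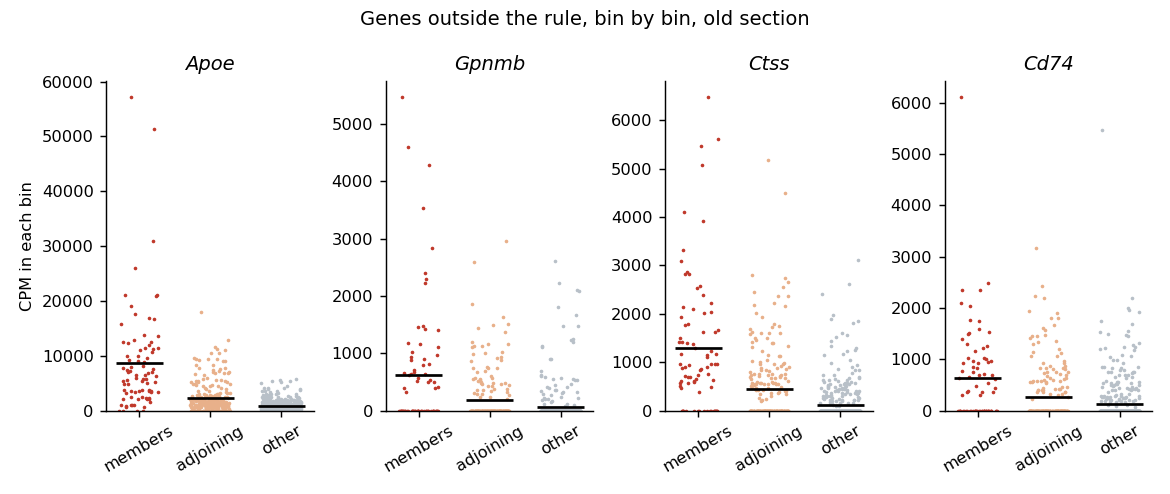
Level of Apoe, Gpnmb, Ctss and Cd74 in CPM in each kept bin of the old section, for the 83 members, the 253 adjoining bins and the remaining bins. Points are bins and black lines the mean over bins; for each gene the members' mean is highest and the adjoining bins lie between.

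The start regions of 3 of these genes are shown because the genes stood high together. Of the 12 highest genes, 9 matched the RefSeq promoter table for GRCm38.p6, whose windows run from 250 bases before to 50 after the annotated start. The windows were searched on both strands for GAGGAAGT, a letter string of the PU.1 type, the myeloid transcription factor, for the AP-1 string TGAGTCA and for the E-box CACGTG, which reads the same on either strand. Each string was chosen with the gene that holds it in view. The 3 strings do not overlap in these windows. Capitals mark the matches, in the reverse-complement form ACTTCCTC for Ctss (chr3:95526536-95526835, plus strand) and TGACTCA for Gpnmb (chr6:49036268-49036567, plus strand), and as CACGTG for Ctsd (chr7:142387778-142388077, minus strand).
Ctss: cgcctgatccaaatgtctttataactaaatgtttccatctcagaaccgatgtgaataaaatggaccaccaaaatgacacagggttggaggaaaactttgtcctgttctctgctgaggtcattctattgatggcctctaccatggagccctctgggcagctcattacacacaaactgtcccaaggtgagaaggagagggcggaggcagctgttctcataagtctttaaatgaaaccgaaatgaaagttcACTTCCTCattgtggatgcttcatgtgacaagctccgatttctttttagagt
Gpnmb: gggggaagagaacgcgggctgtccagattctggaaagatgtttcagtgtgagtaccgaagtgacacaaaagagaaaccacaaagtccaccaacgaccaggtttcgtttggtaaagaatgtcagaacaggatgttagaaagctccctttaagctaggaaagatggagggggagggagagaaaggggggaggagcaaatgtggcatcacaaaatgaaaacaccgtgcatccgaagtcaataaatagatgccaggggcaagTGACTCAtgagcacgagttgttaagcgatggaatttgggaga
Ctsd: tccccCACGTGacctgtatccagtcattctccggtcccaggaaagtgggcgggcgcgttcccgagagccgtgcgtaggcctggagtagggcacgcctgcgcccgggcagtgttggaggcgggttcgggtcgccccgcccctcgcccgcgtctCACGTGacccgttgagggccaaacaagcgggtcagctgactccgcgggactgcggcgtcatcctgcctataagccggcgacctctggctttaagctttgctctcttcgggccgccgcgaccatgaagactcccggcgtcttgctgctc
The PU.1-type string was in 3.20% of the 32851 windows and, of the 9 genes, in Ctss and Selenop. The AP-1 string was in 5.20% of windows and in Gpnmb alone of the 9, and the E-box in 7.15% and in Ctsd alone. A match in letters is not evidence of binding, and no binding was measured.

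Whole gene lists are given next. They hold several of the genes named above and are not separate support for those groups. Lyz2 and Ctss gave 139 and 217 of the macrophage list's 838 counts in members. Cd74 and H2-Ab1 gave 104 and 90 of the 265 of MHC class II. Of the macrophage list outside the rule, 23 of 40 genes had at least 20 counts, and 22 of them were higher by 1.5-fold or more, none lower, at a median ratio of 3.86. Summed, the list stood at 5681 CPM in members and 1287 CPM in other bins, a ratio of 4.41 (4.08 to 4.77). Per bin it was 0 to 20925 CPM with a median of 4646 in members, against 0 to 11118 with a median of 1109 in other bins. The sets overlapped, but 58 of the 83 members (69.9%) lay among the fifth of kept bins richest in the list. Its highest members were the Fc receptor gene Fcgr1 at 9.35 and the lysosomal membrane gene Laptm5 at 9.18, both on 12 or fewer counts in member bins. The cytokine receptor gene Csf2ra was lowest at 1.39 (0.829 to 2.19), and the legumain gene Lgmn, a lysosomal protease found in many cells, had 1.93. Fc receptor and immune signalling genes were higher for 9 of 11 measured, with Fcgr4 at 5.22 and Irf8, a transcription factor of myeloid cells, at 5.01.

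All 4 measured MHC class II genes were higher, at 4.45 for H2-Eb1 to 5.79 for Cd74. The list stood at 1796 CPM in members and 359 CPM in other bins, a ratio of 5.00 (4.33 to 5.75). MHC class I genes were higher for 11 of 15, with H2-Q7 at 3.97 and H2-K1 at 1.41. Tap1, a peptide transporter gene, had 1 count in members and a ratio of 0.238 (0.00594 to 1.38). Interferon-response genes were higher for 12 of 25 and lower for 1, with a summed ratio of 1.24.

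Foamy and giant macrophage genes were higher for 18 of 23 measured and lower for 1, at a median ratio of 3.59. The list stood at 15497 CPM in members and 4384 CPM in other bins, a ratio of 3.53 (3.38 to 3.70). Apoe was its most abundant gene, and without it the ratio was 1.73. Mmp12, the macrophage elastase, had a ratio of 12.1 on 10 counts in members, and Abcg1, which exports cholesterol to lipoproteins, one of 10.5 (6.56 to 16.7) on 34. Another 3 members of the list were singled out after their values were seen. The scavenger receptor gene Cd36 had a ratio of 6.21, the lipoprotein lipase gene Lpl 5.68, and Atp6v0d2, a subunit of the lysosomal proton pump, 6.43. Trem2, a lipid-sensing receptor gene chosen likewise, had 5.01 (2.18 to 10.6). Against this, Soat1, which esterifies cholesterol, had 0.741, Fabp4, a fatty acid binding protein gene, 0.880 (0.551 to 1.34), and Spp1, the osteopontin gene, 0.287 (0.185 to 0.425).

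Lysosome genes were higher for 22 of 36 and lower for 1, at a median of 1.77 and a summed ratio of 1.38. Lipa, the acid lipase that frees cholesterol from its esters, had 3.57, while Ctsl, the cathepsin L gene, was lower at 0.593 and the proton pump gene Atp6v1a had 0.765 (0.325 to 1.55). Iron-handling genes were higher for 10 of 14. The iron exporter gene Slc40a1 had 3.20, and the ferritin chains Fth1 and Ftl1 had 2.42 and 1.63, Fth1 at 7776 CPM in members and 3216 CPM in other bins. Of cytokine and chemokine genes 4 of 10 measured were higher (40.0%, where 16.9% of all measured genes were) and 2 lower, at a median of 1.30. Ccl6 and Cxcl16 were among the higher ones, at 5.99 and 4.85. Of efferocytosis genes, which serve the uptake of dying cells, 11 of 21 were higher (52.4%) and 1 lower. Cd36 and the receptor gene Mertk, at 2.91, were among the higher ones. Summed, the list differed little, at 5294 CPM in members and 4400 CPM in other bins. It had 1.04 (0.962 to 1.13) against adjoining bins and 1.03 within regions, so the list as a whole was hardly higher than in nearby or like tissue.

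Markers of other blood cells were few in the whole section, so a count of 0 in members, which hold 6.45% of counts, does not set them apart. Of 13 neutrophil genes 11 had no count in members, and the list had 2 counts in members and 19 in other bins, a ratio of 1.53 (0.173 to 6.34). S100a8 and S100a9 had 0 counts in members and 1 and 0 in other bins. Of 30 T, NK and innate lymphoid genes 18 had none in members, Cd3e and Cd3g included, and the list stood at 271 CPM in members and 302 CPM in other bins. Rora, a nuclear receptor gene that other cells also express, held 72.2% of that list's counts, and without it the ratio was 1.61. Of 19 B and plasma cell genes 11 had none, with Cd79a and Ms4a1 at 0 in members. Igkc, an antibody light chain gene, had a ratio of 2.91 on 14 counts, but the other 3 of the 4 measured genes were lower. The list had a summed ratio of 0.635 (0.487 to 0.814). Without Sdc1, which held 81.3% of its counts, the ratio was 1.61. Of 15 monocyte genes 7 had none, Ly6c2 included. The dendritic list stood at 780 CPM in members and 736 CPM in other bins, with 2 of 6 measured genes higher, and Xcr1 and Itgax at 0. The mast cell list had 12 counts in members and 128 in other bins, a ratio of 1.36 (0.686 to 2.46). The monocyte list had a summed ratio of 0.409 but a median of 1.01, because versican, Vcan, which many ovarian cells make, supplied most of its counts. Blood endothelium genes were higher for 7 of 11 (63.6%, where 16.9% of all measured genes were), with 793 and 540 CPM, a ratio of 1.47. They had 1.08 (0.872 to 1.34) against adjoining bins and 1.02 within regions. Their part in the results above was not tested.

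**Figure D3:**
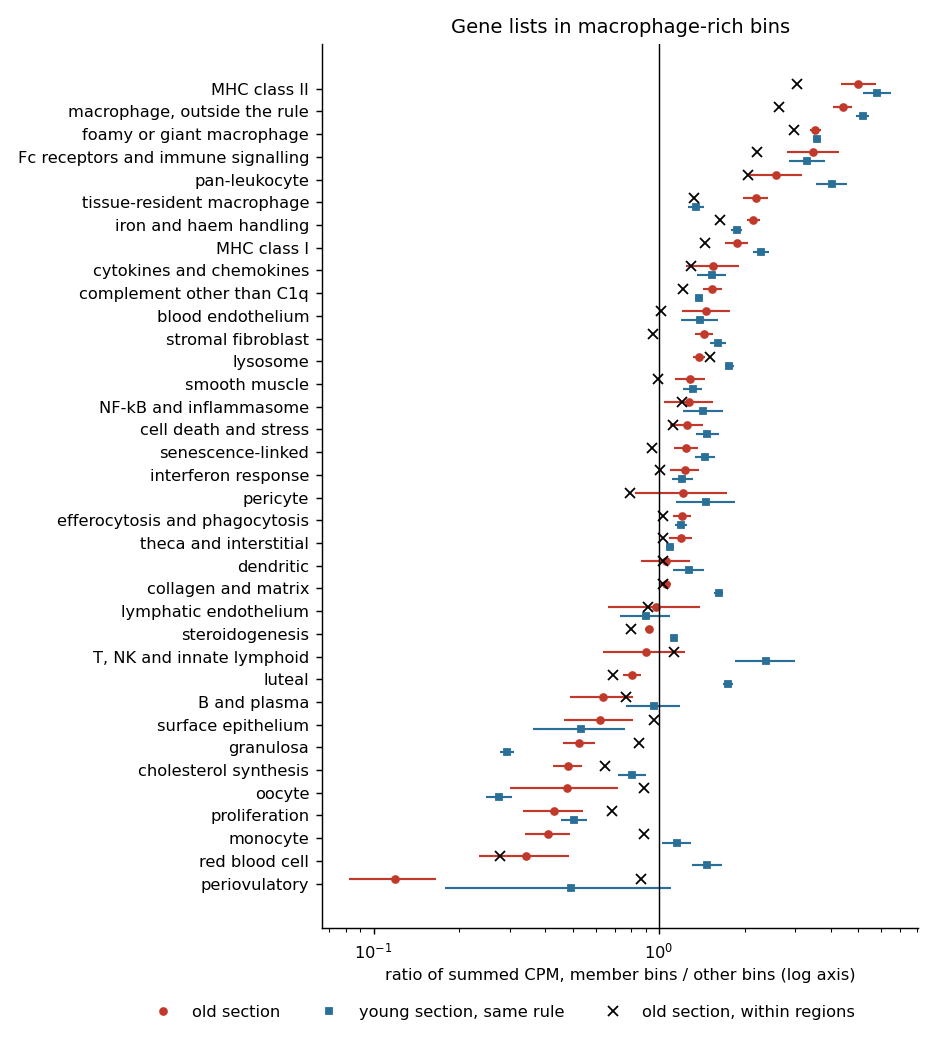
Ratio of summed CPM, members over other bins, for the gene lists with at least 3 measured genes, on a log axis. Red points are the old section and blue squares the young section by the same rule, each with its 95% counting interval; crosses give the old section with members compared within tissue regions. MHC class II and macrophage genes lie at 5.00 and 4.41 in the old section, and periovulatory genes lowest at 0.119.

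Of the lists, periovulatory genes were lowest in members. All 8 measured periovulatory genes, which the surge of luteinising hormone is known to induce, were lower, 4 of them with no count in members. The list stood at 230 CPM in members and 1943 CPM in other bins, a ratio of 0.119 (0.0821 to 0.166). Adamts1, a protease that cuts versican, stood at 0 to 3077 CPM in member bins and 0 to 12146 CPM in other bins, and was seen in 22 of 83 members and in 373 of 801 other bins. Its ratio was 0.108 (0.0702 to 0.158), and that of Vcan, its substrate, 0.104 (0.0641 to 0.159). The endothelin gene Edn2 had no count in members and 85 in other bins. The remaining genes among the 12 lowest had 1 to 5 counts each in members. They were Aif1l, Crispld2, the junctional gene Bves, the mitotic kinesin gene Cenpe, the EGF receptor inhibitor gene Errfi1, the fatty acid elongase gene Elovl6, the kinase gene Prkg2, the apolipoprotein gene Apoa1, Igsf3 and Rnd3. Their ratios ran from 0.0426 for Aif1l to 0.170 for Rnd3.

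Cholesterol synthesis genes were lower for 16 of 21 measured and higher for none, where 27.2% of all measured genes were lower. The list stood at 1946 CPM in members and 4054 CPM in other bins, a ratio of 0.480 (0.425 to 0.540), with Msmo1 at 0.406, Insig1 at 0.190 and Hmgcs1 at 0.851. Granulosa genes were lower for 9 of 14 and higher for 2, with Fst, the follistatin gene, at 0.190. Proliferation genes were lower for 15 of 20, with the topoisomerase gene Top2a at 0.288, and 5 of these 20 had no count in members. Oocyte genes, at 156 and 327 CPM, were lower for 10 of 13. The list had 23 counts in members, and 4 of the 13 had no count there. With these set to a floor of 3 counts the median ratio was 0.752, against 0.445 without the floor. Red blood cell genes were lower for 4 of 4, with 224 CPM in members and 654 CPM in other bins, a ratio of 0.342. The 5 bins richest in red blood cell counts, none of them members, held 45.8% of those counts, and without them the ratio was 0.636 (0.434 to 0.901). Surface epithelium genes were lower for 6 of 10.

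**Figure D4:**
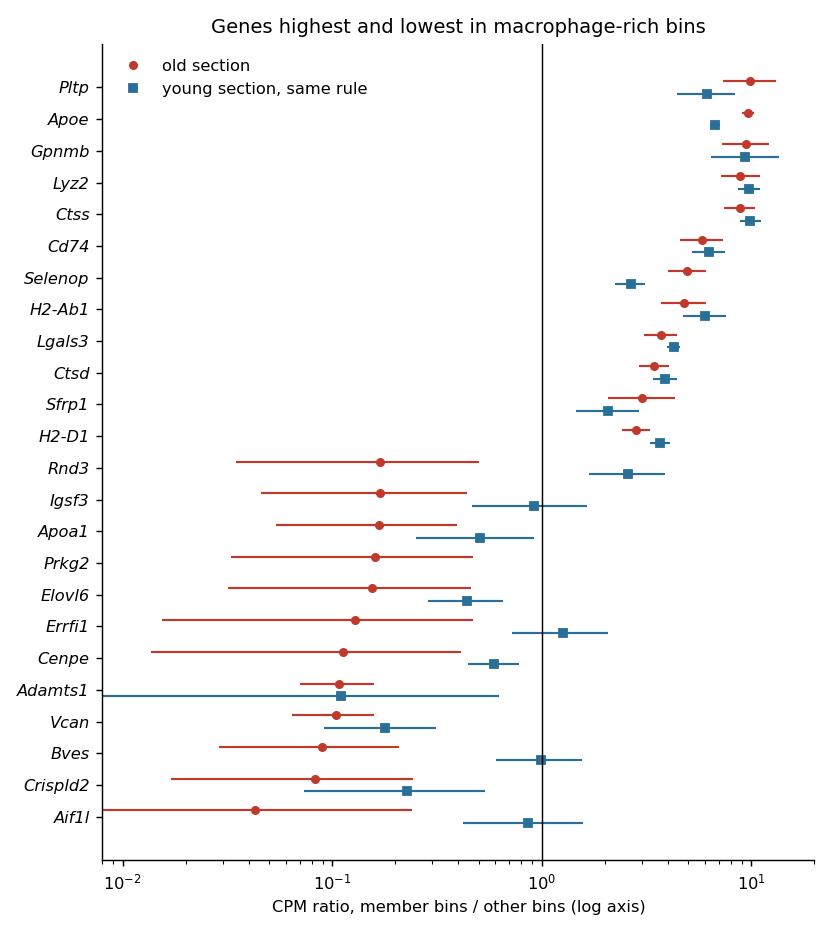
Ratio of CPM, members over other bins, for the 12 genes with the highest and the 12 with the lowest ratios in the old section, on a log axis. Red points are the old section and blue squares the young section by the same rule, with 95% counting intervals; genes with under 20 counts in the young section have no blue square, and the intervals of Aif1l (old) and Adamts1 (young) run past the left edge. All 12 upper genes lie above 1 in both sections, from 2.83 to 9.85 in the old one.

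Luteal and steroid-forming genes were uneven among themselves. The luteal list stood at 5288 CPM in members and 6569 CPM in other bins, a ratio of 0.805 (0.748 to 0.865) and a median of 0.578, with 3 genes of 11 higher and 6 lower. Onecut2 had 2.06 and Akr1c18, which inactivates progesterone, 1.93, whereas the luteinising hormone receptor gene Lhcgr had 0.196 and Scarb1, the receptor that takes up cholesterol from lipoproteins, 0.487. Of steroid synthesis genes Hsd3b1 had 1.09, Cyp11a1 0.897, Star, which carries cholesterol into mitochondria, 0.603, and Hsd17b7 0.180. Stromal fibroblast genes were higher for 10 of 16, with the decorin gene Dcn at 2.77.

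Members fell into a few kinds of tissue. The old bins were clustered without the rule genes and the immune lists, 352 genes in all, which gave 9 regions named here by their leading genes. Region 3, led by Onecut2, Pltp and Akr1c18 with Tnc and Ptgfr close behind, held 23 members among 89 bins (25.8%). Region 2, led by Agt, Cp and Cpxm2, held 23 among 140 (16.4%), and region 1, led by Hba-a2, Hba-a1 and Myh11, 27 among 171 (15.8%). Together these held 73 of the 83 members (88.0%) in 400 of the 884 bins (45.2%). Region 9, with Edn2 and Zbtb16 among its leading genes, held none among 131 bins, which allows a share of up to 2.29%, for counting error only. Pltp was one of the genes that formed region 3, and Pla2g7 and the leukocyte receptor gene Lilr4b were among the leading genes of region 1. The lysosome, iron-handling and efferocytosis lists were not left out as lists. The regions are therefore not fully independent of genes that go with the members.

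**Figure D5:**
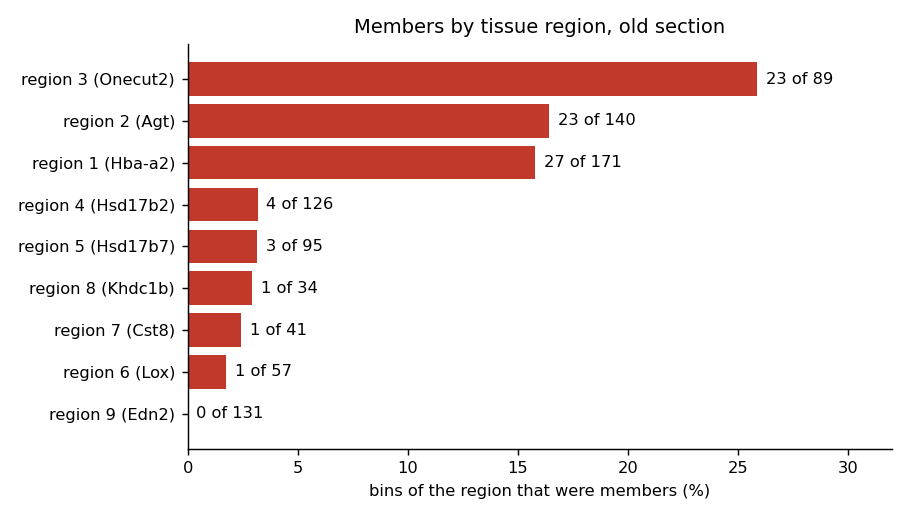
Percentage of the bins of each of the 9 regions of the old section that were members, with the number of members and of bins beside each bar and the first leading gene of each region in brackets. Region 3 has the highest share at 25.8% and region 9 none of 131 bins.

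Within regions the macrophage genes stayed higher in members, and the other groups moved in different ways. Compared with non-member bins of their own region, members had ratios of 2.63 for the macrophage list, 3.05 for MHC class II and 2.97 for the foamy list. The periovulatory list, 0.119 against all other bins, was 0.863 within regions, granulosa genes were at 0.854 and oocyte genes at 0.884. Cholesterol synthesis at 0.649 and proliferation at 0.685 stayed further below 1. Luteal genes at 0.688, steroid synthesis at 0.799 and red blood cell genes at 0.276 lay further from 1 than against all other bins. The 5 bins richest in red blood cell counts were not left out of that 0.276. Stromal fibroblast and smooth muscle genes, at 1.44 and 1.29 against all other bins, were at 0.955 and 0.996. Of the 12 lowest genes, Prkg2, Apoa1 and Igsf3 had ratios of 2.03, 1.12 and 1.06 within regions, and Aif1l was lowest at 0.127. All of the 12 highest stayed above 1.5, from Sfrp1 at 1.69 to Apoe at 4.57.

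Members of the 3 regions differed in what came with the macrophage genes. In region 3 the foamy list reached 21742 CPM in members, against 6092 CPM in the other bins of that region, a ratio of 3.57 (3.24 to 3.93). Apoe gave 692 of the 991 counts of the list in those members, against 380 of 691 in members of region 1 and 243 of 404 in region 2. In region 3 Apoe stood at 15182 CPM in members and 3012 CPM in the others and was seen in 23 of 23 members. Gpnmb had a ratio of 8.84 (4.27 to 20.1), Lpl 7.80 (3.39 to 20.1) and Cd36 20.8 (4.89 to 186) on 16 counts against 2. The luteal list was lower there, as in region 2, with 9609 CPM in members and 14926 CPM in the others, a ratio of 0.644 (0.579 to 0.715), as were steroid synthesis at 0.633 and cholesterol synthesis at 0.444. In region 2 the foamy list had 2.96, the luteal list 0.657 (0.515 to 0.830) and steroid synthesis 0.830, and Spp1 had 4.05 (1.72 to 9.17) on 11 counts against 17. Mast cell genes stood at 7 counts in members and 7 in the 117 other bins of region 2, a ratio of 6.26 (1.88 to 20.9). They had 0 and 20 counts in region 1, and 1 and 5 in region 3. The member bin richest in them lay in region 2 at 6301 CPM, with the median member at 0, so the ratio rests on few bins. In region 1 the macrophage list had 2.39, steroid synthesis 1.02 and luteal genes 1.07. Red blood cell genes had 7 counts in members of region 1 and 539 in its other bins, a ratio of 0.0672. Over the whole section 5 bins, none of them members, held 45.8% of the counts of this list. The ratio in region 1 was not computed without such bins, so a few bins may weigh on it. B and plasma cell genes had a ratio of 2.33 (1.49 to 3.58) there, and 0.369 in region 3. The member bin richest in them lay in region 1 at 10392 CPM, with the median member at 0, so a single bin weighed on the ratio of 2.33. Over the whole section Sdc1 held 81.3% of the counts of that list. Differences between regions were not tested.

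Against the 253 adjoining bins the macrophage genes were also higher in members. Apoe had 4.29, Gpnmb 4.24, Pltp 4.14, Lyz2 3.79 and Ctss 3.53, while Cd74 had 2.95 and H2-Ab1 2.54. The macrophage list stood at 5681 CPM in members and 2070 CPM in adjoining bins, a ratio of 2.74 (2.50 to 3.01), and the foamy list had 2.87. Adamts1 and Vcan, far lower against all other bins, had 0.697 and 0.596 against adjoining ones. The oocyte list stood at 0.335, the luteal list at 0.979 and the B and plasma list at 1.42 in this comparison.

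Individual beads gave a finer view. The members held 856 beads, of which 246 (28.7%) carried a rule-gene count. Those beads were deeper, with a median of 226 counts, against 91.5 on the 610 without. This depth gap moves with the split, since a deeper bead is more likely to show any gene. In CPM, Cd74 was 5.01-fold higher on beads with a rule-gene count than on the others of the same bins (3.05 to 8.61), Apoe 2.62-fold (2.34 to 2.94), Lyz2 2.33-fold, Gpnmb 2.28-fold and Ctss 2.13-fold. The MHC class II list was at 2.81 and the macrophage list at 1.93. Steroid synthesis genes were lower on them at 0.755 (0.705 to 0.808) and surface epithelium genes at 0.361, while luteal genes were at 1.01 and stromal fibroblast genes at 0.937.

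Members also varied among themselves. Across the 83 members the level of Apoe went with that of Cd74 (Spearman rho 0.58) and Pltp (0.48). Gpnmb went with Ctss (0.48) and Lyz2 (0.41) but not with Cd74 (0.03). Gpnmb and Cd74 were seen together in 21 members, Gpnmb alone in 16, Cd74 alone in 23 and neither in 23. These values are descriptions over bins of 1 library that share depth and place, and many bins hold 0 or 1 count of a gene.

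The rule gave much the same picture in the young section, in a library that did not choose the old members. Its 116 members held 778 of 1922 rule-gene counts. Over 12369 genes, 13.2% were at least 1.5-fold higher and 23.7% lower. The macrophage list had a ratio of 4.41 in the old section, against 5.18 (4.91 to 5.47) in the young, with 22 of 23 and 30 of 31 measured genes higher. MHC class II was at 5.00 and 5.83 and the foamy list at 3.53 and 3.58. Apoe weighed on both foamy values. It gave 1420 of the list's 2286 counts in old members and 2003 of 4524 in young members. Without Apoe the old foamy ratio was 1.73. In old bins the list stood at 15497 CPM in members and 4384 CPM in others, of which Apoe held 9626 and 998. In young bins it stood at 12592 and 3518 CPM, of which Apoe held 5575 and 831. No ratio without Apoe was computed for young bins, so 3.53 and 3.58 do not show that the rest of the list was alike. Apoe had 9.65 in the old section, against 6.71 in the young, Gpnmb 9.41 and 9.33, Ctss 8.81 and 9.88, and Selenop 4.95 and 2.65. In levels, Gpnmb stood at 671 CPM in old members and 142 CPM in young members, and Apoe at 9626 and 5575 CPM. Lyz2 stood at 942 CPM in old members and 1336 in young members, and Lgals3 at 1085 and 2781 CPM. Cholesterol synthesis had 0.480 in the old section, against 0.807 in the young, with 16 and 10 of 21 genes lower. Spp1 had 0.287 in the old section, against 3.90 in the young, where it had 16 counts in members and 54 in other bins. The mouse, the plane of section and the library differ along with age and cannot be told apart from it, and the difference between sections was not tested.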

How the data were processed

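Slide-seq of 1 old and 1 young ovary section was analysed. The deposited tables hold whole-number counts per gene and bead, and the deposited position files give x and y in units whose length is not stated. Per the submitters' processing notes the build was mm10. Neither the aligner nor the counter is named, and whether the counts are of molecules is not given in the sources used here. Bins, members and ratios were computed from these counts as described above, with exact conditional binomial (Clopper-Pearson) 95% intervals for counting error. A floor of 3 counts bounds a share of 0. Kept bins held 97.6% of old and 98.8% of young counts.

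Regions came from scanpy 1.11.5 and python-igraph 0.11.9 (2000 variable genes, 20 principal components, 15 neighbours, Leiden resolution 1.0). Python 3.11.15, numpy 2.4.6, scipy 1.17.1 and matplotlib 3.10.9 were used. The ratio step was tested on simulated data. Genes were named as the 12 highest and 12 lowest ratios at 200 counts or more, and from each list the 3 highest, the 3 lowest and the 2 most abundant genes with at least 20 counts. The members and lists were chosen with earlier results of these data known. Alternatives covered bin size and depth, the member rule, weighting, nearby or like tissue, quadrants and totals. Other sections of the study were not analysed here, and some genes are not reported here.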

Additional observations from a re-analysis of the deposited data

Results flagged for a closer look

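Some lists and genes lay on opposite sides of 1 in the old and the young section, with both counting intervals clear of 1. The differences were not tested, and age, animal and section plane cannot be told apart. Red blood cell genes had a member-over-other ratio of 0.342 in the old section, against 1.48 in the young, and the haemoglobin gene Hbb-bs 0.435 and 1.57. A few old bins weighed on this list: its median per bin was 0 CPM in members and in other bins, the richest other bin had 193943 CPM, and without the 5 richest bins the old ratio was 0.636. The monocyte list had 0.409 in the old section, against 1.16 in the young. Vcan held 64.8% of its counts in the old section, and without Vcan the old ratio was 1.01. Against adjoining bins it was 1.07.

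Luteal genes had 0.805 in the old section, against 1.74 in the young, and steroid synthesis genes 0.925 and 1.13. Among their members, Sfrp4, a secreted Wnt modulator gene, had 0.704 in the old section, against 1.93 in the young. Idh1, an isocitrate dehydrogenase gene, had 0.578 and 1.45. Star had 0.603 in the old section, against 1.35 in the young, Cyp11a1, which starts steroid synthesis from cholesterol, 0.897 and 1.36, and the electron carrier gene Fdx1 0.660 and 1.23.

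Of the other genes, Rnd3 had 0.170 in the old section, on 3 counts in members, and 2.58 in the young. The basement membrane collagen gene Col4a1 had 0.644 in the old section, against 1.37 in the young, the nuclear receptor gene Rora 0.643 and 1.91, and the protease inhibitor gene Timp1 0.448 and 1.29.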

How the results depend on the processing

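No paired analysis was possible because each age had 1 library and the libraries carry different replicate numbers. With 1 library per age no replicate could be left out, so precision between animals is unknown and depth limits most genes to a few counts per bin. Over 37 lists, 556 of 814 values under other settings lay inside the interval of the value reported, and over the 24 named genes 370 of 504 did.

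The 1768 higher and 2845 lower genes became 784 (11.9% of those measured) and 1180 (18.0%) against adjoining bins, 1013 and 1821 for genes with at least 50 counts, 458 and 1035 with at least 100, and 772 and 1675 at 2-fold. The last 3 settings pass fewer genes by construction; against adjoining bins the share of measured genes called was lower too, and the cause was not tested.

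The macrophage list was 3.90 with bins of 100 units, 5.16 and 3.68 with the top 5% and 20% of bins, 3.44 with equal weight per bin, 3.40 within 5 classes of bin depth, 2.74 against adjoining bins, 2.63 within regions (2.63 and 2.56 at resolution 0.5 and 2.0), 4.89 without the quadrant of low x and high y, 3.44 without that of high x and low y, 3.87 with members chosen by 4 genes and 5.21 without its most abundant gene. MHC class II was 6.23 and 4.33 with the top 5% and 20%, 3.38 with equal weight, 3.42 within depth classes, 2.70 against adjoining bins, 3.05 within regions (3.00 and 2.78), and 4.06 and 5.78 without the quadrants of high x with low y and high y. The foamy list was 4.38 and 2.80 with the top 5% and 20%, 3.88 with at least 4 rule-gene counts, 3.14 with equal weight, 3.35 within depth classes, 2.87 against adjoining bins, 2.97 within regions (2.95 and 2.86), 3.96 and 3.31 without the quadrants of low y at low and high x, 3.29 with 4 genes and 1.73 without Apoe.

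Cholesterol synthesis was 0.640 with the top 20%, 0.545 within depth classes, 0.614 against adjoining bins, 0.649 within regions (0.650 and 0.700), 0.616 without the quadrant of low x and high y and 0.412 without that of high x and low y. Periovulatory genes were at 0.201 with equal weight, 0.266 within depth classes, 0.688 against adjoining bins, 0.863 within regions (0.937 and 0.982) and 0.178 without Adamts1. The young macrophage list was 5.91 and 4.45 with the top 5% and 20%. The comparisons inside each region and between beads, the setting without the 2 members richest in Apoe and that without the 5 bins richest in red blood cell counts were chosen after seeing the data. Without those 2 members, the macrophage list was 4.02 and the foamy list 3.02.

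Of 19 lists reported at least 1.5-fold from 1, those that crossed 1 under another setting were 3, the monocyte list, at 1.07 against adjoining bins and 1.01 without Vcan, the B and plasma list, at 1.42 against adjoining bins and 1.61 without Sdc1, and oocyte genes, at 1.08 within depth classes and 1.31 within regions at resolution 0.5. Of the 18 lists nearer to 1, 14 crossed it, among them luteal (0.657 to 1.07), steroid synthesis (0.783 to 1.15), T, NK and innate lymphoid (0.784 to 1.61, the highest without Rora), stromal fibroblast (0.915 to 1.59) and smooth muscle genes (0.905 to 1.50), so their direction is not settled here. Of the named genes 3 crossed. Within regions, at resolutions 1.0, 0.5 and 2.0, Prkg2 was 2.03, 2.50 and 2.33, Apoa1 1.12, 1.49 and 1.75, and Igsf3 1.06, 1.07 and 1.10. The causes of these moves were not tested. With 4 adjoining positions the members formed 37 patches.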

Other observations

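Some gene groups are described by single genes. Stress genes were higher in members for 3 of 13 measured (23.1%) and lower for none, where 16.9% of all measured genes were higher, a share near that of the list. Atf3, a stress-induced transcription factor gene, had the highest ratio among them, at 8.31 (3.02 to 21.2) on 8 counts in members and 14 in other bins, and 7.91 in the young section. Casp1, the inflammasome protease, had 3.64 (1.54 to 7.69), and Pycard, its adaptor, 2.33, while the NF-kB inhibitor gene Nfkbia had 0.667 (0.315 to 1.25). Complement genes other than C1q were higher for 5 of 13 (38.5%), with properdin, Cfp, at 2.73. Masp1, a protease of the lectin pathway, had no count in members and 134 in other bins, and 0.0941 in the young section.

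Of senescence-linked genes 3 of 14 measured were higher (21.4%) and 7 lower (50.0%), where 16.9% of all measured genes were higher and 27.2% lower. The summed ratio was 1.25 and the median 0.616. Of the 14 genes 2 had no count in members, and with these set to the floor of 3 counts the median was 1.16, so its side of 1 is not settled. Cdkn2a, the p16 gene, had no count in members and 31 in other bins. As members hold 6.45% of counts, that 0 does not set them apart. Cdkn2b had 2.08 (0.855 to 4.38). Collagen and matrix genes had a summed ratio of 1.06, with Lum at 2.38, Col6a3 at 2.35 and Timp1 at 0.448.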
